A study of Mus musculus with 3 samples.

Results

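The miR-29 family is a group of miRNAs of 3 paralogues, miR-29a, miR-29b and miR-29c, which share 1 seed, the short stretch near the 5′ end by which a miRNA recognizes its target mRNAs. Its members were taken by name, as all mouse miRNA features of the array that begin with miR-29a, miR-29b or miR-29c, whichever arm of the precursor they detect. This gave 7 features of 1079 for mouse miRNAs, namely mmu-miR-29a-3p, mmu-miR-29b-3p and mmu-miR-29c-3p and the 5p strands miR-29a-5p, miR-29b-1-5p, miR-29b-2-5p and miR-29c-5p. They were measured in matrix vesicles (MVs), small vesicles that osteoblasts release into the bone matrix, from the extracellular matrix (ECM) of MC3T3-E1 cells, an established mouse osteoblastic line. The vesicles were freed with 500 units/mL collagenase and collected by ultracentrifugation in 3 independent isolations, and 100 ng of RNA from each was hybridized to 1 array with 1 dye (n = 3). All cultures received osteogenic medium, with β-glycerophosphate according to the labels and without it according to the methods. There was 1 group, with neither the parent cells nor another condition, so no comparison between conditions was made. Because a signal is a total over all vesicles on an array, fewer vesicles that carry a miRNA and fewer copies per vesicle cannot be told apart.

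In bone, the miR-29 family is known mainly from its targets. One group of these consists of matrix genes of the osteoblast, among them type I and type III collagens and osteonectin (Sparc). Another consists of inhibitors of osteoblast differentiation, such as Hdac4, Tgfb3 and the Wnt antagonist Dkk1. The paralogues are made from 4 genes in 2 pairs, and miR-29b is encoded in both.

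All 7 members matched a mature sequence in RefSeq (assembly GRCm38.p6). The 3p strands are shown first because every detected member is one of them, with the seed (bases 2 to 8) in capitals.
miR-29a-3p: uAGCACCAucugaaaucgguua
miR-29b-3p: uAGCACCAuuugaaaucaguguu
miR-29c-3p: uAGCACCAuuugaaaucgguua
These 3 are the only array features, among the 867 of 1079 that matched a RefSeq sequence, with the seed AGCACCA, whose complement in a target mRNA is UGGUGCU. Counted from 1 at the 5′ end, miR-29a-3p and miR-29c-3p are 22 bases long and differ by 1 substitution, C10U (the base of miR-29a-3p first). miR-29b-3p, which has 23 bases, differs from miR-29a-3p over the first 22 by C10U, G18A, U21G and A22U, and from miR-29c-3p by G18A, U21G and A22U, with the base of miR-29b-3p last. No matched feature outside the family was closer than 9 mismatches to miR-29a-3p or miR-29b-3p, or 10 to miR-29c-3p, in an ungapped comparison from the 5′ end. Signal from 1 paralogue on the probes of another was not tested.

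The 5p strands are shown because none of them was detected and because they alone separate the 2 genes of miR-29b, again with bases 2 to 8 in capitals.
miR-29a-5p: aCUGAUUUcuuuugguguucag
miR-29b-1-5p: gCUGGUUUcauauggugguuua
miR-29b-2-5p: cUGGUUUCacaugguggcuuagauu
miR-29c-5p: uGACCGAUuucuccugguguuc
No 2 of these 4 have the same seed, and no other matched array feature has any of their seeds. The longest run that miR-29b-1-5p and miR-29b-2-5p have in common is 9 bases.

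The hairpins of the 4 genes show how the strands lie in their precursors, with the 3p strand in capitals.
Mir29a: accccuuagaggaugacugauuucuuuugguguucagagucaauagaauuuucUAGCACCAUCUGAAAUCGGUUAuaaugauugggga
Mir29b-1: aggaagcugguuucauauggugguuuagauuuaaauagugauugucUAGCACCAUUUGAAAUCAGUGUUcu
Mir29b-2: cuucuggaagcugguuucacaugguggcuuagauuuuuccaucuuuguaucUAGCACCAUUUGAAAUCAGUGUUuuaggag
Mir29c: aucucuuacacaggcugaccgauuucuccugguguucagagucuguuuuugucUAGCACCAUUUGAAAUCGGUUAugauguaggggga
In GRCm38.p6, Mir29a lies at chr6:31062660-31062747 and Mir29b-1 at chr6:31063023-31063093, both on the minus strand, with 275 bases between them, and no annotated gene spans either. Mir29b-2 at chr1:195037040-195037120 and Mir29c at chr1:195037547-195037634 lie on the plus strand with 426 bases between them, inside the interval of the long non-coding RNA gene A330023F24Rik. One feature of the array stands for miR-29b-3p from both pairs. The array tables themselves name no assembly.

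The authors deposited for each feature an intensity (the total gene signal, on a linear scale) with its error and detection call, and the arrays were not scaled to each other. An undetected feature carries a fixed signal of 0.1, so its own signal is not known. In its place stands a nominal upper bound, the lowest signal detected on that array (4.87, 4.39 and 4.41 in isolations 1, 2 and 3). The lowest ratio of a detected signal to its error was 3.02, 3.09 and 3.05. A feature with a larger error may therefore go undetected at a signal above this bound. Isolation 1 stood apart, with 86 detected mouse miRNAs against 179 and 164 in the others. Of 10 miRNAs typical of mesenchymal cells, 5 were detected in isolation 1 and 8 in each of the other isolations, with summed signals of 93.6, 1426 and 1054. The summed signals of all detected mouse miRNAs were 13558, 42478 and 35179 in isolations 1, 2 and 3. The lists for leukocytes, red blood cells, liver and neurons had 0 detected members in all isolations (of 5, 2, 3 and 3 on the array), and the muscle list had 1 of 3, miR-206-3p. Over all mouse miRNA features, 7.97%, 16.6% and 15.2% were detected in isolations 1, 2 and 3. At these shares 0 of so few features says little, and nothing is read from it. None of the 7 negative control features was detected on any array.

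Within the miR-29 family, the array detected 3p strands only. Of the 7 features, 3 were detected in at least 1 isolation, against 16.7% of all mouse miRNA features. By isolation, 0 of 7 members were detected in isolation 1 (7.97% of all features), 3 in isolation 2 (16.6%) and 2 in isolation 3 (15.2%). No member was detected in all 3 isolations (7.78% of all features). With isolation 1 left out, 2 were detected in every array (15.2% of all features). The 3 paralogues therefore had 2 patterns of detection, isolations 2 and 3 for miR-29a-3p and miR-29b-3p and isolation 2 alone for miR-29c-3p. The first pattern was shared by 80 mouse miRNAs and the second by 14.

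**Figure D1:**
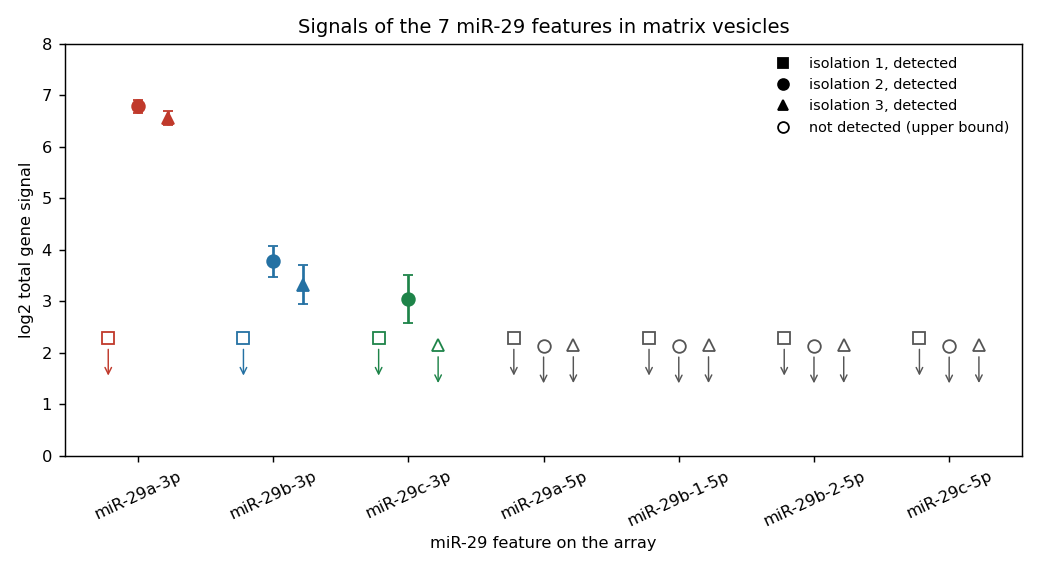
Log2 total gene signal (y axis) of the 7 miR-29 features (x axis) in MVs from each of the 3 isolations. Filled symbols are detected features with the deposited error of the array. Open symbols with arrows are nominal upper bounds, the lowest signal detected on the array. miR-29a-3p lies at 6.79 and 6.56, above miR-29b-3p at 3.77 and 3.32 and miR-29c-3p at 3.04, and all 5p strands are undetected.

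miR-29a-3p, the guide strand of Mir29a, had the highest signal of the family. It was undetected in isolation 1 and had signals of 110.4 ± 9.76 and 94.2 ± 8.70 in isolations 2 and 3, where ± is the deposited error of the array. On the log2 scale these are 6.79 and 6.56 (6.67 ± 0.16, SD, n = 2). The signals were 11.3 and 10.8 times their errors, above the median ratios of 8.59 and 7.79 over all detected miRNAs of those arrays. By signal, it was at place 41 of 179 in isolation 2 and 37 of 164 in isolation 3. A signal higher or lower by 1 error would have moved it to between places 38 and 44 and between places 34 and 42, respectively.

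miR-29b-3p, the product of both gene pairs, was near the lower end of the detected range. Its signal was 13.7 ± 2.87 in isolation 2 and 10.0 ± 2.63 in isolation 3, with no detection in isolation 1. The log2 signals were 3.77 and 3.32 (3.55 ± 0.32, SD, n = 2). It was at place 147 of 179 and 137 of 164, and its signals were 4.76 and 3.81 times their errors. Within 1 error these places ran from 138 to 156 and from 122 to 158, so a neighbor in this order is not separated from miR-29b-3p.

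miR-29c-3p was detected in isolation 2 alone, with a signal of 8.25 ± 2.65 (log2 3.04) at place 171 of 179. Its signal was 3.11 times its error, and only 2 of the 179 detected miRNAs had a lower ratio. The 14 miRNAs detected in isolation 2 alone had a median signal of 8.60 there, and ranged from 4.39 to 21.9. For isolations 1 and 3 only the nominal bounds of the arrays, 4.87 and 4.41, can be given, and its own limit there is not known.

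**Figure D2:**
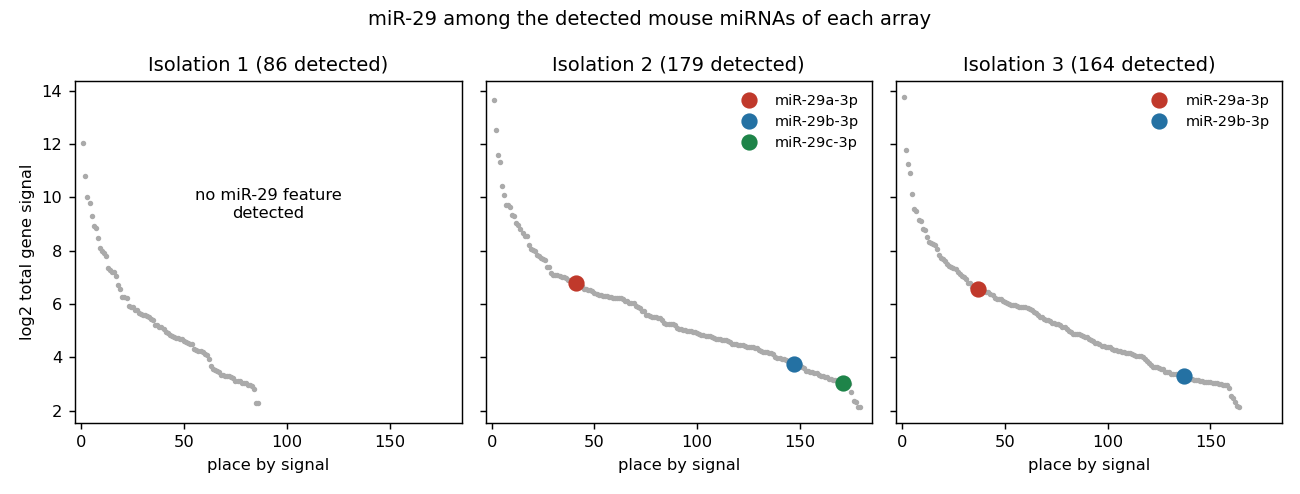
Log2 total gene signal (y axis) against place by signal (x axis) for every detected mouse miRNA (gray) in isolations 1, 2 and 3. miR-29a-3p (red) is at places 41 and 37, miR-29b-3p (blue) at 147 and 137 and miR-29c-3p (green) at 171, and no member appears in isolation 1.

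Among the paralogues, the signal of miR-29a-3p exceeded that of miR-29b-3p by 9.51 and 9.26 combined array errors in isolations 2 and 3. In isolation 2 it was 8.07 times that of miR-29b-3p (a log2 difference of 3.01 ± 0.33, combined array error) and 13.4 times that of miR-29c-3p (3.74 ± 0.48). In isolation 3 it was 9.40 times that of miR-29b-3p (3.23 ± 0.40). It was 21.4 times the nominal bound for miR-29c-3p there, but the own limit of miR-29c-3p is not known, so this ratio may be smaller. The mean log2 difference between miR-29a-3p and miR-29b-3p over both arrays was 3.12 (n = 2). miR-29b-3p and miR-29c-3p were not separated, since their signals in isolation 2 differed by 5.43 with a combined error of 3.91. Since 2 probes can give unequal signal for equal RNA, the order holds for signals and not for amounts of RNA, and with 2 arrays it was not tested.

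The family took little of the total signal. Its detected members summed to 0.311% of the signal of all detected mouse miRNAs in isolation 2 and 0.296% in isolation 3, and none in isolation 1 (0.203% ± 0.176, SD, n = 3, with undetected members counted as 0). Of the family's own signal, miR-29a-3p gave 83.4% in isolation 2 and 90.4% in isolation 3. A few very bright features weigh on these shares, and with the 10 brightest miRNAs of each array left out the mean share was 0.740%.

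The 5p strands, the passenger strands of the hairpins, were below detection on every array. miR-29a-5p, miR-29b-1-5p, miR-29b-2-5p and miR-29c-5p each had 0 detections in 3 isolations, and their bounds are those of the arrays. For each of the 4 hairpins of the family, the feature of its 3p strand was therefore detected and that of its 5p strand was not. For Mir29c this rests on 1 array. Over the 353 hairpins in RefSeq with both strands on the array, 44 (12.5%) had the 3p strand alone, 50 (14.2%) the 5p strand alone, 11 (3.12%) both and 248 (70.3%) neither. The 4 hairpins share features, as 2 of them give the same miR-29b-3p, so they are not 4 separate observations. Because neither miR-29b-1-5p nor miR-29b-2-5p was detected, the arrays do not show which gene miR-29b-3p came from.

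Detection in every paralogue was compared with other seed families as a description. Of the 22 groups of at least 3 matched features with a common seed, 14 had a detected feature, and in 1 of them, the miR-29 group, every feature was detected in at least 1 isolation. The miR-29 group has 3 features, the smallest size counted, and a larger group needs more detections to be complete. This count was made after the values were seen, and it rests on the detection of miR-29c-3p on 1 array.

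Between isolations 2 and 3, the members differed by about the size of the array error. The log2 signal in isolation 3 minus isolation 2 was -0.23 ± 0.18 (array error) for miR-29a-3p and -0.45 ± 0.49 for miR-29b-3p. As signals these differences were 1.24 and 0.941 times their combined errors. Of the 164 miRNAs detected in both arrays, 150 were lower in isolation 3, with a median difference of -0.39, quartiles of -0.71 and -0.24 and an SD of 0.44 across miRNAs. Relative to that median, miR-29a-3p was at 0.16 and miR-29b-3p at -0.06, at places 38 and 95 of 164 from the highest difference. miR-29b-3p thus lay between the quartiles, and miR-29a-3p just above the upper one.

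**Figure D3:**
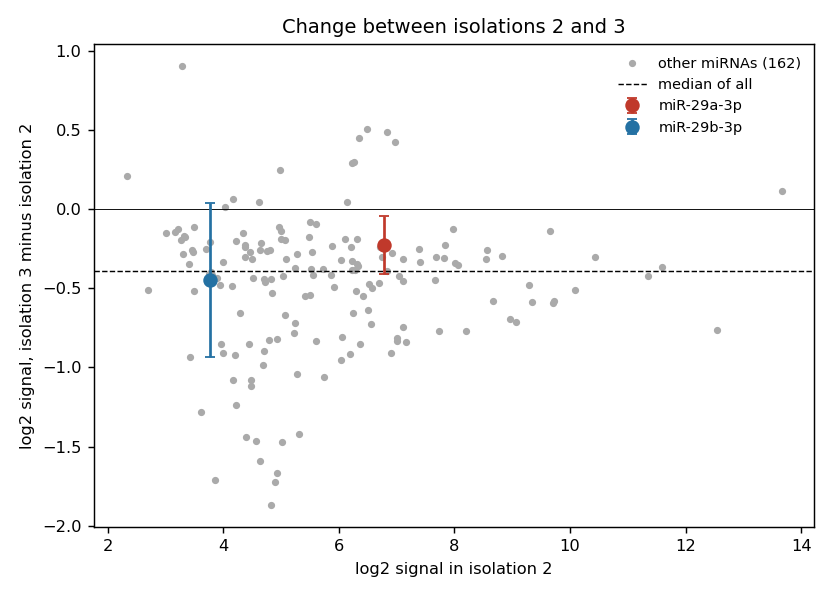
Log2 signal in isolation 3 minus isolation 2 (y axis) against log2 signal in isolation 2 (x axis) for the 164 mouse miRNAs detected in both arrays. The dashed line is the median, -0.39; miR-29a-3p lies above it at -0.23 and miR-29b-3p just below it at -0.45, with bars for the combined array error.

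miR-29a-3p was not detected in isolation 1 although it was among the brighter miRNAs of the other arrays. In isolation 2, 40 miRNAs were brighter than miR-29a-3p, and 2 of them were missed in isolation 1. In isolation 3, 36 were brighter, and 1 of them was missed. Among the 94 miRNAs detected in isolation 2 and missed in isolation 1 it had the 3rd highest signal, and among the 80 of isolation 3 the 2nd highest. With the lowest detected signal of isolation 1 as the limit, its signal was at least 22.6-fold higher in isolation 2 and at least 19.3-fold higher in isolation 3, or at least 4.50 and 4.27 on the log2 scale. The 85 miRNAs detected in both isolations 1 and 2 differed by a median of 1.34 and at most 4.50. That highest value, of miR-199a-3p, equals the bound of miR-29a-3p at this precision, so in that pair of arrays miR-29a-3p is at the edge of the measured range. The 84 miRNAs detected in both isolations 1 and 3 differed by a median of 0.87 and at most 4.15, below its bound of 4.27 there. Both sets hold only miRNAs detected in isolation 1, so a miRNA of similar signal with so large a difference would be missing from them. Nothing is therefore read from the place of miR-29a-3p at or above their highest values. The limit of a single feature is not known, and with the 10th percentile of the detected signals in its place, an alternative chosen after the values were seen, the bound was 3.70 for isolation 2 and 7 of the 85 reached it, and 3.47 for isolation 3, which 5 of the 84 reached. The 5 mesenchymal miRNAs detected in both arrays differed by 3.09 to 4.50, with a median of 4.27, and their part in the result was not tested.

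For the fainter paralogues the bounds say less. miR-29b-3p was at least 2.81-fold higher in isolation 2 than the limit of isolation 1 and miR-29c-3p at least 1.69-fold, or 1.49 and 0.76 on the log2 scale. Of the 85 measured miRNAs, 38 and 64 differed by as much or more. In isolation 3 the bound of miR-29b-3p was 2.06-fold, which 34 of the 84 measured miRNAs reached. With the 10th percentile as the limit, miR-29b-3p was at least 1.61-fold higher in isolation 2 and 1.18-fold in isolation 3, 67 of the 85 and 79 of the 84 measured miRNAs reached these bounds, and miR-29c-3p had no bound above 1-fold.

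**Figure D4:**
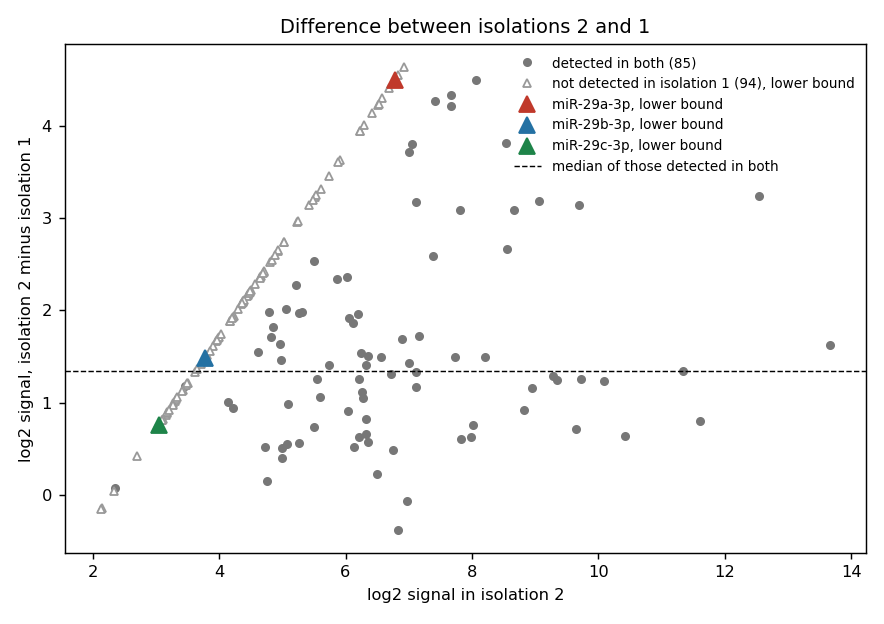
Log2 signal in isolation 2 minus isolation 1 (y axis) against log2 signal in isolation 2 (x axis) for mouse miRNAs detected in isolation 2. Gray points are the 85 measured in both arrays (median 1.34, dashed). Open triangles are lower bounds for the 94 missed in isolation 1, with its lowest detected signal as the limit. Among these, miR-29a-3p (red) has a bound of 4.50, miR-29b-3p (blue) 1.49 and miR-29c-3p (green) 0.76.

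Several miRNAs had signals close to those of the miR-29 members. Among the 80 miRNAs with the same detection calls, the 5 closest to miR-29a-3p by root mean square difference of log2 signals over the 2 arrays were miR-99a-5p (0.09), miR-24-3p (0.11), let-7f-5p (0.24), miR-199a-5p (0.37) and miR-23a-3p (0.41). Their signals ran from 91.9 for miR-23a-3p to 121.2 for miR-24-3p in isolation 2. In isolation 3 miR-23a-3p was at 66.1 and miR-24-3p at 99.9, beside 94.2 for miR-29a-3p. The 5 closest to miR-29b-3p were miR-423-5p (0.02), miR-34b-5p (0.05), miR-148a-3p (0.05), miR-20a-5p (0.10) and miR-302c-5p (0.13). Likeness over 2 arrays is a likeness of level and carries no more. Of these 10, miR-99a-5p and miR-199a-5p are also on the mesenchymal list.

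Other miRNAs reported to act on osteoblast differentiation were described as 2 lists without the miR-29 family. Of 12 miRNAs known to raise it, 3 were detected in isolation 1 and 8 in each of isolations 2 and 3, and the 4 brightest were miR-3960, miR-2861, miR-21a-5p and miR-27a-3p. miR-3960 and miR-2861, neighbors that are known to act on the Runx2 pathway, had signals of 884.1 and 153.3 in isolation 1, where miR-29a-3p was undetected, and 1376 and 258.9 in isolation 2. miR-27a-3p followed the pattern of miR-29a-3p, with signals of 86.0 and 58.7 in isolations 2 and 3 and none in isolation 1. Of 25 miRNAs reported to restrain differentiation, 3 were detected in isolation 1 and 12 in each of the others. The 4 brightest were miR-125b-5p, miR-214-3p, miR-24-3p and miR-23a-3p. For miR-125b, however, the study saw no effect of a mimic on osteogenesis in MC3T3-E1 or ST2 cells. The shares detected were 25%, 66.7% and 66.7% of the first list and 12.0%, 48.0% and 48.0% of the second in isolations 1, 2 and 3, beside 7.97%, 16.6% and 15.2% of all mouse miRNA features. Both lists were chosen as known miRNAs with earlier results in view, so nothing is read from their shares. The median difference between isolations 3 and 2 was -0.30 for the 8 detected members of the first list and -0.42 for the 12 of the second, near the -0.39 of all miRNAs. miR-21a-5p, miR-125b-5p and miR-214-3p are on the mesenchymal list as well.

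After a shift of each array by its own 90th percentile over all mouse miRNAs, the mean log2 value was 3.35 ± 1.96 (SD, n = 3) for miR-29a-3p, 1.27 ± 3.76 for miR-29b-3p and 0.63 ± 4.31 for miR-29c-3p. In isolation 1 that percentile falls on undetected features (-3.32 on the log2 scale, against 4.71 and 4.18 in the others), so the bound of each member there was 5.61, above its shifted values in both other arrays. The study's note on this shift does not say whether the percentile is taken before or after undetected miRNAs are set to the lowest detected signal. Taken after, an order added once the data had been seen, the means were 1.48, -0.60 and -1.24, so the sign for miR-29b-3p and miR-29c-3p turns with that order. The means of the first order hold that bound as a value for isolation 1, and the SDs are mostly the distance between it and the other arrays.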

How the data were processed

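miRNAs of MVs were measured on 3 mouse miRNA arrays, 1 per isolation, numbered as in the sample titles. The authors deposited each as intensities (total gene signal), errors and detection calls from Agilent Feature Extraction, for which the submitters' processing notes give version 10.10.1.1, and these are not normalized. Detected mouse miRNA signals ran from 4.87 to 4194, from 4.39 to 12973 and from 4.41 to 14058.5 in isolations 1, 2 and 3. With 3 arrays, means have limited precision. Detected signals were taken as log2 and ranked within arrays. Array errors were combined as the square root of the summed squares. No test was run, since there was 1 group. Normalized values subtract the 90th percentile of the deposited log2 signals of 1079 mouse miRNAs, undetected ones at 0.1, and an undetected member then stands at the lowest detected signal of its array. Control features and 57 viral features were left out. The miRNAs named are the members, the 5 closest to miR-29a-3p and to miR-29b-3p, the 4 brightest of each osteoblast list, and cell type lists. The members, lists and settings were chosen with earlier results of these data known. miR-145a-5p stood for miR-145-5p, and miR-486-5p was not matched. Scripts were tested on simulated data in which the 90th percentile fell on detected features in every array, unlike in isolation 1. Sequences and coordinates are those of RefSeq (GRCm38.p6). Python 3.11.15, numpy 2.4.6, pandas 2.3.3 and matplotlib 3.10.9 were used.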

Additional observations from a re-analysis of the deposited data

How the results depend on the processing

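Of 78 recomputed values of 14 results, 61 stayed within a set tolerance and 17 moved by more. The tolerance was 1 SD over the isolations where one could be had, the deposited array error otherwise, and a factor of 1.5 for counts. For the normalized values of miR-29a-3p, miR-29b-3p and miR-29c-3p that SD was 1.96, 3.76 and 4.31, mostly the distance of isolation 1 from the other arrays. Values of miR-29b-3p and miR-29c-3p that changed sign could thus count as within tolerance, so the 61 are no measure of stability for them. The reference of the shift moved the normalized values of miR-29a-3p, miR-29b-3p and miR-29c-3p most. When all mouse miRNAs gave a 75th percentile as reference, they were 8.53, 6.45 and 5.81. When only miRNAs found in every isolation set the reference, they were -3.67, -5.75 and -6.39 at the 90th percentile and -2.0, -4.08 and -4.72 at the 75th. With the 90th percentile over all features and undetected features at the deposited signal, miR-29a-3p, miR-29b-3p and miR-29c-3p were at 1.35, -0.73 and -3.19. Each isolation left out in turn gave 2.22 to 3.99, -0.90 to 2.37 and -1.86 to 1.97, and the values of miR-29b-3p and miR-29c-3p were below 0 without isolation 1. The number of members detected in all isolations was 0 to 2 with each isolation left out, 2 without isolation 1 (15.2% of all features). The log2 signal of miR-29a-3p was above that of miR-29b-3p by 2.08 and above that of miR-29c-3p by 2.72 with bounds included in isolations without detection, since in isolation 1 all members then hold 1 value. The difference of miR-29a-3p between isolations 3 and 2 was -0.23 without centring. Its mean place, as a share of the detected miRNAs, went from 22.7% to 22.2% with viral features included. The family share was 0.740% without the 10 brightest miRNAs, and 0.148% to 0.304% with each isolation left out. The bound between isolations 2 and 1 was 3.70 with the 10th percentile as the limit, chosen after seeing the data, as was the 90th percentile taken after the floor (1.48, -0.60 and -1.24). Signals under the detection limit of an array were not measured. No paired analysis was possible because there is only 1 group of arrays.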
